A study of Gallus gallus with 9 samples.

Results

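Low methylation regions of chicken sperm DNA are described here, meaning regions whose mean methylation over all 9 birds was at least 5% and below 20%. The rule was applied to the region table, and 1119 of its 6428 listed regions met it (17.4%). The level itself chose the regions and is therefore given as a description only. Sperm came from adult Cobb broiler males, 1 library per bird. The F0EHC group (4 birds) hatched from eggs that were warmed to 39.5 °C, with humidity raised to 65%, during 12 h of each day between embryonic days 7 and 16. The F0C group (5 birds) came from eggs kept at 37.8 °C and 56% humidity until hatching. All birds were untreated after hatching as far as the labels say and were reared under one protocol. Humidity was raised along with temperature, so the effects of heat and humidity cannot be told apart. The question behind the comparison was whether sperm of males warmed in the egg carries another methylation pattern than sperm of control males.

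In vertebrate DNA, methyl groups are set mostly on cytosines followed by guanine (CpG). Most CpGs outside CpG-rich islands are methylated in sperm, while islands at gene starts are usually free of methylation. Reduced representation bisulfite sequencing (RRBS) cuts the genome so that CpG-rich fragments are enriched, and bisulfite then separates methylated from unmethylated cytosines. A mean of 5 to 20% can arise when every bird carries the mark on a small share of its sperm DNA, or when a few birds carry it on a larger share and the others almost not at all. The values of the single birds separate these cases. As means over a region's cytosines, they do not show whether all or only some of its cytosines carried the mark.

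Each value is the methylated percent of a region in 1 bird, averaged over its cytosines by the authors, and differences are in percentage points, F0EHC mean minus F0C mean. Read depth is unknown for regions. It is known only for the 402 listed single cytosines that lay in 120 of the 1119 regions, where the median depth was 50 to 58 reads in F0EHC libraries and 40 to 56 reads in F0C libraries. The libraries stood close together, with mean levels over the regions of 11.2% ± 0.385 in F0EHC (SD, n = 4) and 11.1% ± 0.554 in F0C (SD, n = 5). No library stood apart, and 2 of the 1119 regions lacked the value of 1 F0C bird. Regions had been delimited by metilene, a program that looks for stretches that differ between groups, on the same libraries. No difference between the groups below is therefore independent of how the regions were made.

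The 1119 regions had a median level of 10.7% (quartiles 7.39% and 14.3%) and a median length of 69 bp, from 15 to 775 bp, against 72 bp over all listed regions. Birds of 1 group differed by a median SD of 3.72 points in F0EHC and 3.97 points in F0C. Over all 9 birds the range between the lowest and the highest bird had a median of 14.9 points, which is more than the median level itself. The spread was larger in F0EHC in 528 regions and larger in F0C in 591, so F0EHC had the larger spread in 47.2%, beside 49.8% over all listed regions. Spread grew with level inside the class, from a median range of 11.9 points in the 506 regions at 5 to 10%, through 16.7 points in the 375 regions at 10 to 15%, to 20.1 points in the 238 regions at 15 to 20%. Listed regions under 5% had a median range of 7.50 points and those at 20 to 40% one of 24.3 points, so the low methylation regions lay between their neighbours in level.

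Few regions had every bird within the bounds of the class. All values lay between 5% and 20% in 138 of the 1119 regions, and at least 1 bird was under 5% in 666. A region near a bound can have birds beyond it at a small spread, and 506 regions had a mean of 5 to 10%. These counts therefore do not measure evenness. In 505 regions no bird reached 20%. A single bird reached it in 287 regions, 2 birds in 141, 3 birds in 105, 4 birds in 60, 5 birds in 17 and 6 birds in 4. No bird was the source of most of these values. The level of 20% was reached in 127 to 158 regions by each F0EHC library and in 97 to 155 by each F0C library. Whether or not it reached 20%, each library was the highest in 108 to 156 regions among F0EHC birds and in 68 to 148 among F0C birds. F0C replicate 2 was the library with the lowest mean (10.3%) and the fewest highest values (68).

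At the edges of the rule, chr1:48125741-48125783 and chr14:12731963-12732018 were just inside at 5.01% each, and chr3:55896757-55896825 and chr14:14348895-14348957 just outside at 4.99% and 4.98%. At the upper edge chr7:36093876-36094002 and chr15:9428043-9428150 were inside at 19.99% each, and chr17:3816486-3816556 and chr19:49017-49129 outside at 20.02% and 20.06%. Birds around both edges spread far beyond these gaps. At chr15:9428043-9428150, for example, F0EHC birds had 25.6%, 14.96%, 6.01% and 11.9%, against 18.2%, 33.9%, 19.6%, 23.2% and 26.5% in F0C birds.

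The 3 most even regions show the other extreme. At chr2:127477824-127477885 the F0EHC birds had 7.98%, 6.39%, 7.10% and 7.27% and the F0C birds 5.09%, 4.06%, 3.85%, 4.75% and 6.72%. At chr11:12278528-12278575 the values were 8.40%, 8.01%, 7.95% and 8.14% in F0EHC, against 11.8%, 10.1%, 12.5%, 10.7% and 12.6% in F0C. At chr6:31525484-31525532 they were 4.62%, 3.60%, 4.88% and 4.0% in F0EHC, against 7.91%, 7.85%, 5.48%, 7.25% and 6.52% in F0C. In the second and the third of these the groups did not overlap although their means differed by only a few points.

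Direction was nearly even. F0EHC was the higher group in 543 low methylation regions (48.5%, beside 56% of all listed regions) and the lower group in 576 (51.5%, beside 44%). Regions under 5% were higher in F0EHC in 67.1% of cases and regions at 20 to 40% in 52.4%. The median size of the difference was 4.37 points, against 4.55 points over all listed regions, and differences ran from -30.8 to 21.2 points. At least 10 points separated the means in 48 regions higher in F0EHC (background 3.9%) and in 30 regions lower in F0EHC (background 2.91%). In 97.1% of the regions the range inside 1 of the groups exceeded the difference between the group means, and over all listed regions the share was 97.4%.

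With limma, a linear model fitted over all 6428 regions with Benjamini-Hochberg adjustment, 0 low methylation regions passed an adjusted p of 0.05, and the background was 0. The smallest adjusted p was 0.256. At an unadjusted p under 0.05, 102 low methylation regions were higher in F0EHC (9.12%, background 12.9%) and 70 were lower (6.26%, background 6.29%). Together these were 15.4% of the low methylation regions, beside 19.2% of all listed regions. On a log2 ratio scale 169 regions passed this unadjusted threshold (15.1%, background 21.4%), and with the robust form of the fit 186 (16.6%, background 18.6%), again with 0 at the adjusted one. Groups did not overlap at all in 40 regions higher in F0EHC (3.58%, background 4.77%) and in 41 lower in F0EHC (3.67%, background 3%). Against regions under 5%, of which 13.3% were higher and 6.12% lower without overlap, both shares were smaller. In the classes above they were 3.60% and 2.35% at 20 to 40%, 2.57% and 1.81% at 40 to 60%, and 2.04% each over 60%. The unadjusted limma threshold was passed by 41.8% of regions under 5% and by 9.98% at 20 to 40%.

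**Figure D1:**
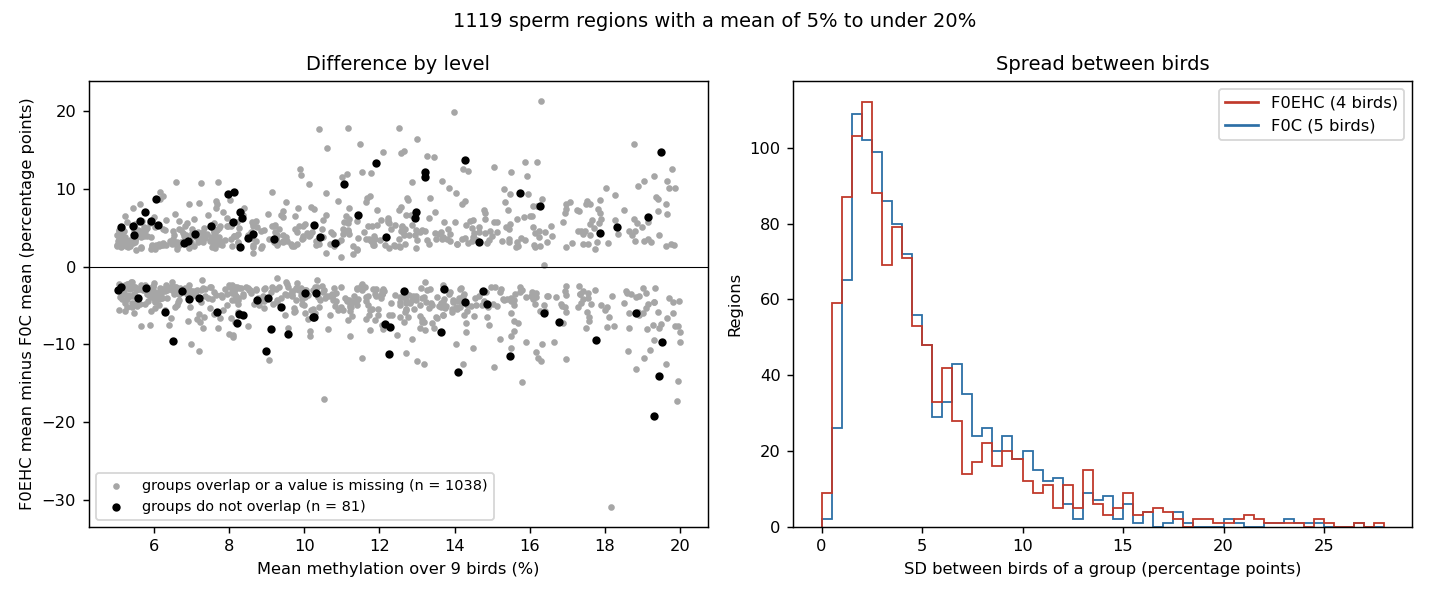
Left, each of the 1119 low methylation regions by its mean over 9 birds (%) and by the F0EHC mean minus the F0C mean in percentage points, with the 81 regions without overlap of birds in black. Right, the number of regions by SD between birds, for 4 F0EHC birds and 5 F0C birds. Few differences lie near 0, and the medians of the SD are 3.72 points in F0EHC and 3.97 points in F0C.

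The widest difference of all did not separate the groups. At chrUn_NT_464325v1:13185-13232, on an unplaced contig and with no gene ID, F0EHC birds had 2.20%, 1.26%, 0.799% and 0%, against 38.9%, 54.7%, 5.67%, 1.498% and 58.5% in F0C birds. A group of 3 F0C birds was high and the remaining F0C birds were near the F0EHC level, so that the difference of -30.8 points came with an SD of 26.9 points inside F0C. This region and the widest one in the other direction, on chromosome 27 and given further on, were picked after their values had been seen.

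A rule picked, among the regions without overlap, the widest 6 differences of each direction. All 12 had the same limma adjusted p of 0.256, and the exact permutation p given for some of them is a description, since absence of overlap had chosen them (two-sided, smallest possible value 0.00794 over the 126 ways of drawing 4 of 9 birds).

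Higher in F0EHC, the widest was chr19:8864229-8864728, a 500 bp intron region assigned to the microRNA gene gga-mir-1585. F0EHC birds had 29.9%, 29.7%, 21.0% and 30.1% there, against 5.03%, 15.03%, 12.0%, 13.8% and 18.9% in F0C birds, a difference of 14.7 points (limma SE 3.90, exact permutation p = 0.00794). The F0EHC birds were nearly equal except for replicate 3. Next came chr23:5056283-5056707, an intergenic region of 425 bp assigned to gga-mir-1780, with 18.7%, 29.3%, 29.2% and 10.2% in F0EHC, against 7.89%, 6.00%, 9.28%, 9.86% and 8.09% in F0C. Here the lowest F0EHC bird stood less than 1 point above the highest F0C bird, so the separation was narrow. Its 2 listed cytosines had a median depth of only 15 reads, with 8.5 and 8 reads in F0EHC replicates 1 and 2. At chr13:1715954-1716160, intergenic and without a symbol, F0EHC birds had 21.4%, 22.6%, 19.7% and 13.5%, against 6.29%, 12.0%, 4.03%, 3.93% and 3.60% in F0C. Its difference of 13.4 points (limma SE 2.77) gave the smallest unadjusted limma p of all low methylation regions, 0.000398.

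The other 3 of this kind were of similar size. At chr20:10095732-10095804, in an intron of ANGPT4, a ligand of the endothelial receptor TIE2, F0EHC birds had 26.1%, 16.4%, 26.6% and 10.6%, against 8.48%, 9.40%, 4.78%, 10.5% and 6.02% in F0C birds. At chr27:4217111-4217174 the values were 18.6%, 24.6%, 17.9% and 17.1% in F0EHC, against 10.2%, 9.78%, 3.43%, 5.35% and 11.8% in F0C. At chr17:1531800-1531862, in an intron, they were 10.999%, 24.3%, 12.5% and 19.9% in F0EHC, against 3.78%, 7.08%, 9.54%, 6.34% and 5.07% in F0C. Of these 3 the chromosome 27 region had the clearest gap, and at ANGPT4 the groups almost touched.

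Lower in F0EHC, the widest was chr19:5522360-5522403 in an intron of HIC1, a gene for a transcriptional repressor that is known in human tumours for methylation of its promoter. F0EHC birds had 7.205%, 5.19%, 15.9% and 6.38%, against 36.0%, 19.9%, 22.1%, 38.6% and 22.5% in F0C birds, a difference of -19.1 points (limma SE 4.80, exact permutation p = 0.00794). Every F0C bird was thus near or above 20% and every F0EHC bird below. A second HIC1 region some kilobases away, starting at 5516559, did not repeat the separation, with 7.01%, 3.59%, 23.1% and 6.46% in F0EHC and 24.5%, 13.2%, 4.53%, 25.8% and 28.6% in F0C.

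At chr10:9033117-9033190, an intergenic region assigned to TMOD3, which caps the slow end of actin filaments, F0EHC birds had 13.3%, 8.09%, 15.01% and 10.2%, against 42.7%, 26.2%, 20.02%, 17.2% and 22.1% in F0C. At chr27:1544075-1544130, in an intron, the values were 4.84%, 8.24%, 5.59% and 7.58% in F0EHC, against 17.3%, 8.99%, 11.9%, 25.2% and 37.2% in F0C. In both, the F0EHC birds covered a narrower span than the F0C birds. On a contig of chromosome 2, at chr2_NT_457893v1_random:6662-6685, F0EHC birds had 10.96%, 8.34%, 7.58% and 9.37%, against 19.1%, 19.0%, 21.0%, 25.9% and 18.1% in F0C. This was the most even separation of the 6, with an SD of 1.46 points in F0EHC and 3.14 points in F0C.

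The last of them rested more on single F0C birds. At chr15:2206029-2206105 F0EHC birds had 5.09%, 9.10%, 6.00% and 3.86%, against 33.9%, 15.7%, 10.9%, 15.6% and 10.1% in F0C. At chr20:10436161-10436234, intergenic, F0EHC birds had 3.25%, 4.18%, 1.59% and 2.70%, against 11.8%, 30.3%, 4.901%, 4.92% and 17.3% in F0C. F0C replicate 1 led at the first and F0C replicate 2 at the second, and without that bird the differences of -11.2 and -10.9 points became -7.05 and -6.78 points.

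**Figure D2:**
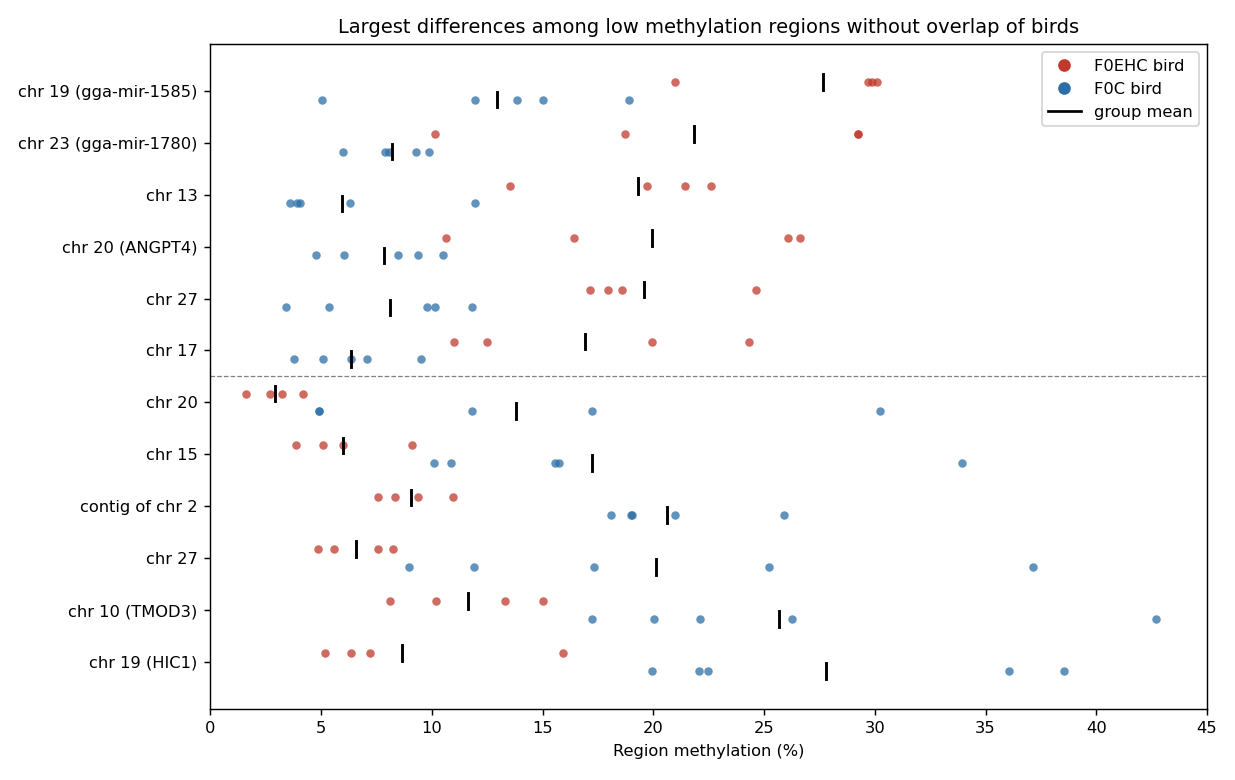
Methylation (%) of single birds in the 6 regions higher in F0EHC (above the dashed line) and the 6 lower in F0EHC (below it) with the widest difference among those without overlap, F0EHC in red above F0C in blue, black bars for group means. At the HIC1 intron the means are 8.67% in F0EHC and 27.8% in F0C, and at the gga-mir-1585 region 27.7% in F0EHC and 12.96% in F0C.

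Regions in which a few birds alone were methylated were those with 1 to 3 birds at 20% or more and all other birds under 5%. There were 21 among the low methylation regions (1.88%), beside 34 of the 6397 listed regions with 9 values (0.531%). The level rule itself favours this pattern, since a few high birds among nearly unmethylated ones give a mean of this size, so nothing is read from these shares. The high birds belonged to F0EHC alone in 10 regions, to F0C alone in 8 and to both groups in 3. A single bird was high in 11 regions, 2 birds in 8 and 3 birds in 2. The other birds had a median of 2.47%, while the highest bird of a region ranged from 20.7% to 53.2%. F0EHC replicates 1 to 4 were high in 5, 6, 3 and 3 of the 21 regions, and F0C replicates 1 to 5 in 5, 5, 5, 0 and 1. The 21 regions lay in 18 separate places when regions within 10000 bp were joined, and 14 of them held a listed cytosine.

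Among those with F0EHC birds only, chr2:54388909-54388966 had the highest single value. This intergenic region is assigned to CUL1, the scaffold of a family of ubiquitin ligases. F0EHC birds had 0.702%, 2.95%, 46.1% and 0.836% there, against 2.26%, 2.87%, 0.672%, 0.290% and 2.75% in F0C. F0EHC replicate 3 was alone, and the group difference of 10.9 points turned to -0.272 points without it. At chr28:3341357-3341431, in an intron of JAK3, a kinase that signals for cytokine receptors of lymphocytes, F0EHC birds had 34.9%, 3.62%, 2.61% and 2.79%, against 1.504%, 1.93%, 2.49%, 2.17% and 3.35% in F0C. Without F0EHC replicate 1 the difference of 8.69 points became 0.714 points. The directly adjoining JAK3 region repeated the pattern at a lower level, with 20.7%, 1.95%, 4.77% and 3.24% in F0EHC and 4.49%, 3.49%, 3.52%, 1.94% and 1.49% in F0C.

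On chromosome Z, at chrZ:15838-15895 in an intron, F0EHC replicate 2 stood alone, with 1.28%, 32.4%, 2.98% and 1.72% in F0EHC and 2.14%, 2.39%, 1.61%, 1.69% and 2.69% in F0C. The fourth, chr23:5056159-5056282, had 3 high birds, with 20.6%, 31.2%, 26.9% and 2.23% in F0EHC, against 3.08%, 2.92%, 1.71%, 1.11% and 3.84% in F0C. It directly adjoins the gga-mir-1780 region without overlap given above. With all birds its difference was 17.7 points (limma adjusted p = 0.256), and without F0EHC replicate 4, the low bird, it was 23.7 points. Leaving out the lowest bird of the higher group could only widen the difference, so nothing is read from the wider value.

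The gga-mir-1780 place held 4 low methylation regions in all, each higher in F0EHC. The outer ones were chr23:5056045-5056154, with 16.8%, 18.0%, 29.2% and 3.26% in F0EHC against 3.41%, 3.26%, 2.85%, 3.01% and 9.15% in F0C, and chr23:5059399-5059460, with 10.4%, 9.15%, 15.9% and 7.81% in F0EHC against 9.05%, 7.90%, 10.6%, 6.06% and 6.58% in F0C. F0EHC replicate 4 was the lowest F0EHC bird at all 4. The 3 that adjoin can share reads and are not separate measurements.

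Among those with F0C birds only, chr32:35896-35964 reached the highest value, with 1.35%, 0%, 2.08% and 0.929% in F0EHC, against 53.2%, 35.1%, 0%, 0.926% and 1.02% in F0C. Its one listed cytosine had a median depth of only 12 reads. The neighbour chr32:35384-35696 had the same pair of high birds, with 1.67%, 3.14%, 1.93% and 2.07% in F0EHC and 22.5%, 20.8%, 1.45%, 1.48% and 2.46% in F0C. At chr12:15739800-15739865 F0EHC birds had 3.51%, 2.82%, 1.78% and 1.55%, against 1.64%, 28.6%, 35.04%, 3.47% and 3.08% in F0C.

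A single F0C bird was high at chr33:328384-328422, with 3.40%, 3.48%, 2.68% and 3.23% in F0EHC and 3.40%, 2.82%, 32.9%, 2.81% and 1.78% in F0C. At chr6:1030391-1030481, assigned to CCSER2, F0C replicates 1 and 3 were the high ones, with 1.80%, 1.64%, 1.79% and 0.690% in F0EHC and 23.6%, 1.61%, 28.4%, 1.03% and 2.15% in F0C. The high F0C birds thus changed from place to place. The exact permutation p of these regions ranged from 0.254 at the chromosome 12 region to 0.921 at the chromosome 33 region. With so few high birds, all of them in the larger group, this test cannot give a small p. The regions were chosen for that pattern, so these values are a description only.

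Birds of both groups were high at the last kind. At chr27:494214-494262 F0EHC birds had 40.04%, 1.67%, 1.64% and 3.27%, and F0C birds 29.4%, 2.74%, 0.628%, 0% and 3.57%, so that 1 bird of each group stood alone. At chrUn_NT_471827v1:105-284 F0EHC birds had 2.72%, 2.21%, 1.10% and 32.1%, and F0C birds 2.42%, 3.02%, 25.1%, 1.69% and 2.44%. Again 1 bird of each group carried the mark, and the group means differed by less than 5 points at both regions (exact permutation p = 0.548 and 0.659). Both regions were chosen for high birds in both groups, so small differences and large p-values follow from the choice and are a description only.

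**Figure D3:**
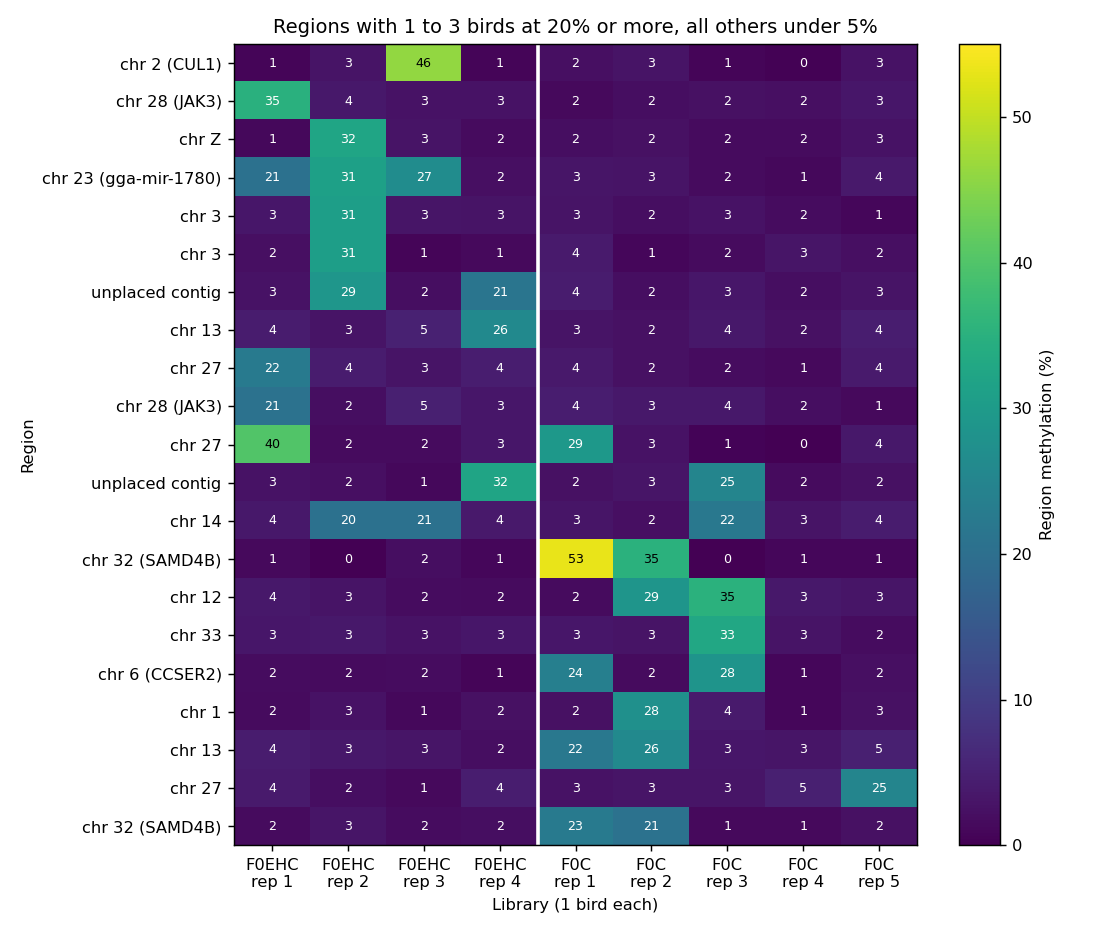
Methylation (%) of the 21 regions with 1 to 3 birds at 20% or more and all others under 5%, 1 column per bird with the 4 F0EHC birds left of the white line and the 5 F0C birds right of it. The 10 regions at the top have high F0EHC birds only, the next 3 birds of both groups and the 8 at the bottom F0C birds only.

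Neighbouring low methylation regions tended to be high in the same birds when they were close. Over the 9 birds, the median Pearson r between a region and the next was 0.806 for the 73 pairs within 100 bp and 0.756 for the 41 pairs at over 100 and up to 1000 bp. For the 123 pairs at over 1000 and up to 10000 bp it was 0.035 and for the 476 pairs beyond 100000 bp it was -0.023. After subtraction of the group means the values were 0.805 within 100 bp and 0.723 at over 100 and up to 1000 bp, so the likeness was one of birds and did not need the group difference. Regions within 100 bp can be covered by the same reads, and all pairs share the same 9 libraries. Among all listed regions of any level, the low methylation regions included, each was also paired with the next listed one. There the median r was 0.538 over 533 pairs within 100 bp and 0.183 over 696 pairs at over 100 and up to 1000 bp. The difference from all listed regions was not tested.

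**Figure D4:**
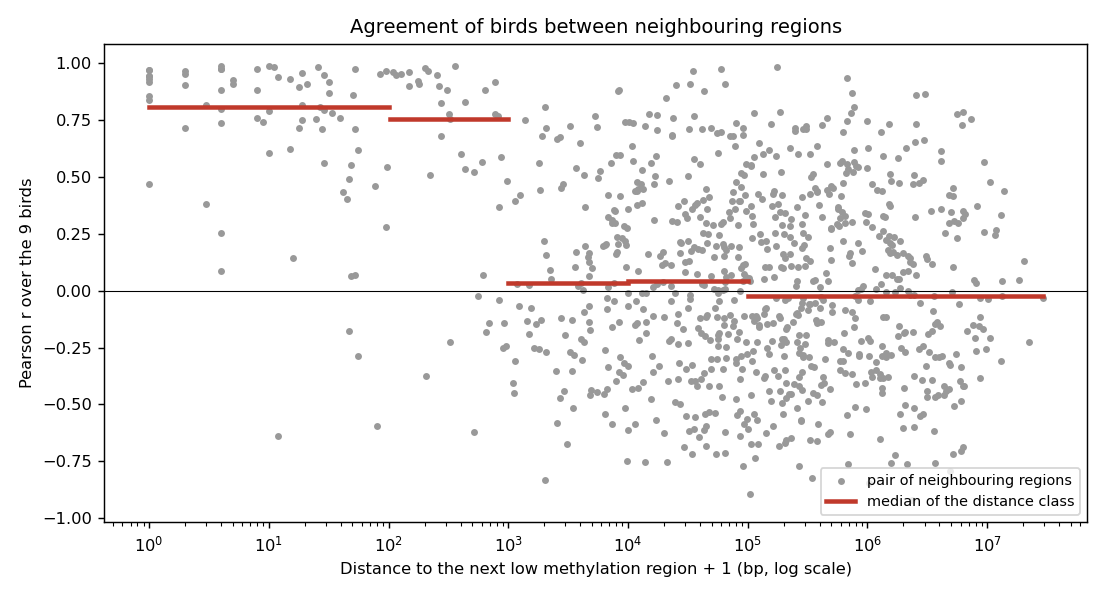
Pearson r over the 9 birds between each low methylation region and the next on its chromosome, by distance plus 1 bp on a log scale, 1 grey point per pair and red bars for the median of each distance class. The medians are 0.806 within 100 bp and 0.756 at over 100 and up to 1000 bp, and near 0 in every wider class.

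Joined within 10000 bp, the low methylation regions formed 53 stretches of 3 or more, with 194 regions, beside 96 pairs and 733 single regions. In 24 of the 53 all regions had the same direction. Some of these stretches were short, such as 374 bp on chromosome 9, and their regions can share reads. The count therefore does not measure agreement between separate regions. The longest run by number lay on a contig of chromosome 4, chr4_NT_459801v1_random from 52816 to 66312, where 7 regions carried the gene ID ENSGALG00000044501. At its region from 58873 to 59151 F0EHC birds had 2.45%, 33.2%, 25.3% and 0.541%, and F0C birds 2.25%, 1.32%, 20.1%, 3.51% and 25.4%. At 59203 to 59242 they had 7.57%, 41.0%, 25.9% and 7.35% in F0EHC and 10.3%, 4.59%, 27.6%, 3.21% and 31.8% in F0C. The same 4 birds, F0EHC replicates 2 and 3 and F0C replicates 3 and 5, were high at both and at 58632 to 58726, and the 7 regions split into 4 higher and 3 lower in F0EHC.

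A second contig of chromosome 4 held 6 regions, chr4_NT_459802v1_random from 100545 to 106258. At its region from 104630 to 104930 F0EHC birds had 23.3%, 27.7%, 24.7% and 1.68%, and F0C birds 1.48%, 19.7%, 17.7%, 1.08% and 25.2%. The birds fell apart into high and low ones with little between, and each group held both kinds. The pair of regions just beyond it repeated the low values of F0EHC replicate 4 and of F0C replicates 1 and 4. The third stretch, chrUn_NT_464186v1 from 4527 to 21254, held 6 regions, of which 4 carried the ID of MOGS, an enzyme that trims sugar chains of new proteins. F0EHC replicate 4 was alone at a pair of them, with 9.67%, 8.34%, 6.81% and 30.4% at 10226 to 10384 and 6.89%, 3.84%, 1.90% and 33.4% at 10402 to 10475 in F0EHC, against 6.55%, 5.19%, 9.07%, 4.01% and 14.5% and then 2.65%, 1.43%, 1.57%, 3.73% and 0% in F0C.

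A further place was added after its values had been seen. On chromosome 9, ENSGALG00000010357 had 5 low methylation regions. At chr9:23478130-23478226 F0EHC birds had 28.8%, 5.66%, 24.1% and 2.67%, and F0C birds 4.84%, 2.09%, 3.33%, 25.7% and 3.35%. At chr9:23477907-23478111 the values were 30.7%, 11.5%, 26.0% and 7.13% in F0EHC and 8.30%, 13.2%, 6.02%, 35.7% and 7.79% in F0C. F0EHC replicates 1 and 3 and F0C replicate 4 were the 3 highest birds at 4 neighbouring regions here, but not at the fifth, chr9:23468433-23468524, where F0C replicate 4 was the lowest at 5.24%.

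**Figure D5:**
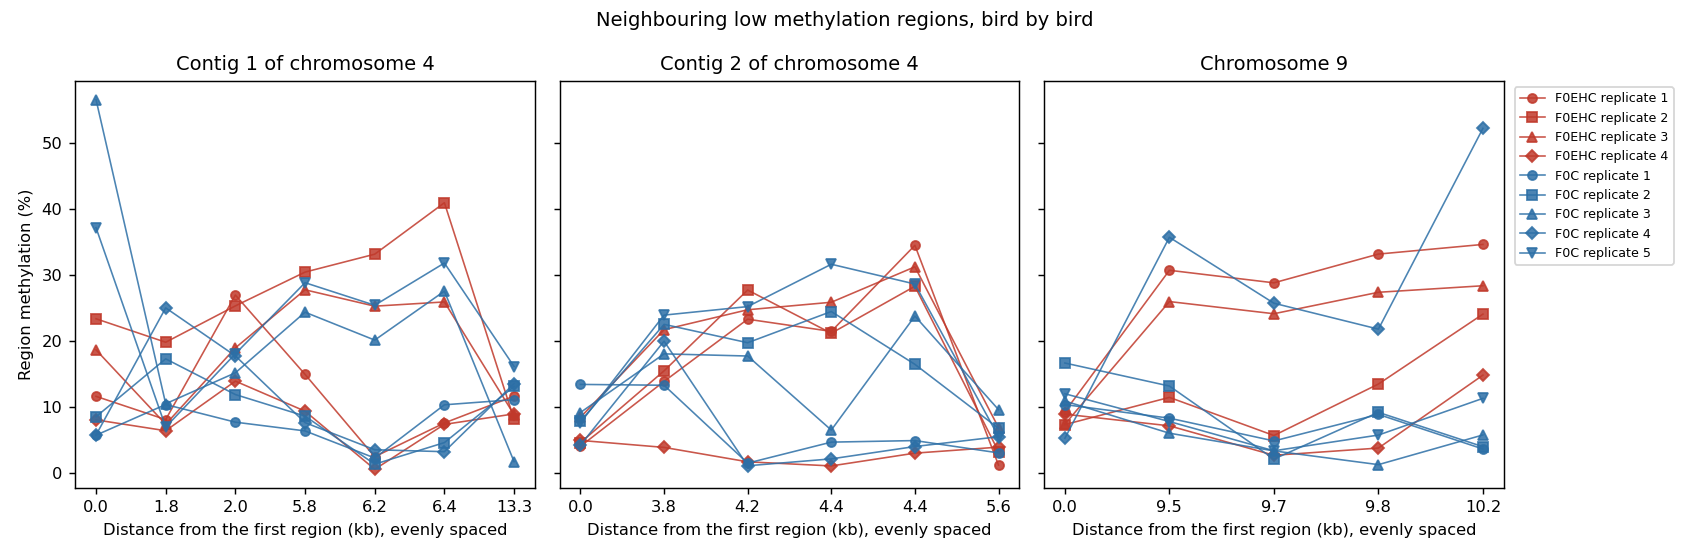
Methylation (%) of single birds at neighbouring low methylation regions, F0EHC in red and F0C in blue, for the 7 regions of the first contig of chromosome 4, the 6 of the second and the 5 of the chromosome 9 gene, ordered by distance from the first region in kb and drawn at even steps. High and low birds occur in both groups, and F0C replicate 4 reaches 52.3% at the last chromosome 9 region.

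The first 600 kb of chromosome 27 was also looked at after its values had been seen. On the rest of the chromosome 24 low methylation regions were higher and 22 lower in F0EHC. Of all 1119 regions 48.5% were higher, beside 56% of all listed regions. A stretch from 483496 to 494262 held 3 regions, all higher, and close regions were counted separately. The first 600 kb held 9 low methylation regions, of which 8 were higher in F0EHC, a split that was not tested. The widest, chr27:389109-389229 at a promoter, had 45.5%, 24.2%, 5.00% and 37.6% in F0EHC, against 26.3%, 1.81%, 1.77%, 2.31% and 2.14% in F0C, a difference of 21.2 points (limma SE 7.68, adjusted p = 0.256). F0EHC replicate 3 was with the F0C birds and F0C replicate 1 with the F0EHC birds. F0C replicate 1 was even the highest of all birds at chr27:300848-300903, with 15.3%, 10.4%, 0.619% and 17.4% in F0EHC and 34.1%, 0.745%, 2.25%, 0.947% and 0.980% in F0C. The one region lower in F0EHC, chr27:571545-571599, had another order, with 2.56%, 5.62%, 1.46% and 0.741% in F0EHC and 8.23%, 8.67%, 9.12%, 2.37% and 8.25% in F0C.

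Pooled into chromosome classes, the low methylation regions were spread much like the listed regions. Chromosomes 1 to 5 held 236 (21.1%, beside 21.6% of all listed regions), chromosomes 6 to 10 held 140 (12.5%, beside 13.4%) and chromosomes 11 and up, the microchromosomes, held 534 (47.7%, beside 49.9%). Chromosome Z held 33 (2.95%, beside 2.26%) and unplaced or random contigs held 176 (15.7%, beside 12.9%). Single chromosomes varied more. Among those with at least 20 low methylation regions, the share of listed regions that were low ran from 12.6% on chromosome 18 to 24.7% on chromosome 20, beside 17.4% of all listed regions, and with fewer regions it was 8.57% on chromosome 22 and 46.2% on chromosome 16 (6 regions each). By direction, 119 were higher and 117 lower on chromosomes 1 to 5, 63 higher and 77 lower on chromosomes 6 to 10, and 257 higher and 277 lower on the microchromosomes. On single chromosomes the split was less even, with 12 higher and 32 lower on chromosome 12, 7 higher and 22 lower on chromosome 6, and 15 higher and 5 lower on chromosome 25. Close regions were counted separately in these splits. A stretch on chromosome 25 held 5 of them, all higher, and a stretch on chromosome 6 held 4, all lower. Neither these shares nor these splits were tested. Among the contigs, 5 regions lay on a random contig of W, the chromosome that male birds lack. At its region from 29188 to 29733 F0EHC birds had 10.4%, 59.5%, 5.78% and 13.2%, and F0C birds 9.38%, 25.5%, 5.84%, 5.08% and 4.72%. Where the reads counted on this contig came from was not tested.

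A gene ID stood beside 1078 of the 1119 regions, and these were 890 different IDs. Most IDs had a single low methylation region (761), and 129 had 2 or more, 38 had 3 or more and 6 had 5 or more. The most frequent was ENSGALG00000044501 with the 7 regions above. ENSGALG00000016245 on chromosome 1 had 5, of which 4 were lower in F0EHC. At chr1:112386049-112386084, the widest of them, F0EHC birds had 9.81%, 10.9%, 6.38% and 7.15%, against 11.8%, 7.72%, 13.2%, 28.1% and 31.4% in F0C. At chr1:112383655-112383708 they had 9.36%, 6.59%, 9.38% and 8.20%, against 12.3%, 10.1%, 13.5%, 9.19% and 10.5%. Both had overlapping birds, and the 5 regions were not high in one set of birds.

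ENSGALG00000042804 on chromosome 32 also had 5, among them the pair with F0C replicates 1 and 2 high. The study's tables give this ID the symbol SAMD4B, which the RefSeq assembly GRCg7b places on another chromosome. The remaining 3 regions did not show that pair of birds, as at chr32:33524-33594 with 12.3%, 32.3%, 16.4% and 27.3% in F0EHC and 17.7%, 13.8%, 16.2%, 11.5% and 10.97% in F0C. Another ID with 5, that of TNK2, a tyrosine kinase, was named after its values had been seen because all 5 were higher in F0EHC. At chr9:15012279-15012348 its F0EHC birds had 7.65%, 7.81%, 8.42% and 10.01%, against 6.84%, 6.08%, 5.52%, 4.03% and 4.80% in F0C, and 4 of the 5 lay directly beside each other.

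Symbols were at hand only for genes in the study's own tables. Those list differential methylation in this sperm contrast and, separately, genes whose expression changed in the chick hypothalamus after injection of a miR-200a mimic. The 163 regions with a symbol (107 symbols, 86 regions higher and 77 lower) are therefore a choice made by those tables, in part on this contrast. Of the 126 regions with a stated feature, 51 were intergenic, 41 intronic, 17 at promoters, 10 exonic and 6 at transcript ends, and 1 was called both intron and promoter. Of the 163 regions with a symbol, 7 were higher in F0EHC without overlap (background 4.77%) and 8 lower (background 3%). The 23 heat shock genes and the 15 genes of the DNA methylation machinery on the lists had no low methylation region with their symbol, though only 6 and 0 of them had an ID in those tables. Of 28 innate immune genes, of which 3 had an ID, only SOCS3 had one, and of 20 germ line genes, of which 2 had an ID, only PRDM14. These counts cover the lists only, and immune genes outside them, such as IKBKE, JAK3, CD40 and STAT3, also had low methylation regions.

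SOCS3, the feedback inhibitor of JAK and STAT signalling, had 5.06%, 10.8%, 7.26% and 10.3% in F0EHC at chr18:9931313-9931373, against 20.6%, 11.7%, 13.4%, 12.9% and 9.09% in F0C (limma adjusted p = 0.260). The region assigned to PRDM14, a regulator of germ cell formation in the mouse, is intergenic, at chr2:116917540-116917608. It had 12.0%, 10.5%, 11.1% and 10.96% in F0EHC, against 5.77%, 10.2%, 10.9%, 5.42% and 10.3% in F0C (limma adjusted p = 0.338). Its listed cytosine had a median depth of 18 reads, with 9 reads in F0EHC replicate 2 and 9 in F0C replicate 5. Birds of the groups overlapped at both the SOCS3 and the PRDM14 region.

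Other genes with a symbol were named after their values had been seen, to show regions beside regulators of development and immunity. None passed a limma adjusted p of 0.05, and it was 0.256 at SOX12, NKX2-5 and the SLC12A5 promoter. Regulators that were not picked include EBF1 (limma adjusted p = 0.593) and MSX2 (3 regions, limma adjusted p = 0.307 to 0.553). Birds of the groups overlapped at all of those. The region chr20:10173318-10173426 is intergenic and assigned to SOX12, a transcription factor gene. The groups did not overlap there, with 11.6%, 21.1%, 7.38% and 12.4% in F0EHC and 4.98%, 2.87%, 4.601%, 4.57% and 2.25% in F0C. At TAL1, which directs blood cell formation, chr8:21983898-21983988 had 19.9%, 23.9%, 7.40% and 24.4% in F0EHC and 6.16%, 8.29%, 12.4%, 5.40% and 7.98% in F0C. F0EHC replicate 3 fell among the F0C birds there. The region chr13:9220005-9220050 is intergenic and assigned to NKX2-5, a transcription factor of the heart. It had 11.4%, 5.01%, 2.64% and 5.88% in F0EHC and 23.1%, 26.0%, 11.1%, 16.3% and 17.3% in F0C, with a single overlapping pair of birds.

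At the promoter of SLC12A5, the chloride transporter of neurons, the groups were apart at chr20:10778048-10778126, with 5.28%, 3.58%, 5.53% and 4.16% in F0EHC and 16.2%, 9.18%, 16.5%, 11.4% and 10.3% in F0C. The other SLC12A5 regions did not separate the groups, and chr20:10777703-10777844 close by went the other way, at a mean of 16.3% in F0EHC and 12.7% in F0C. At the promoter of IKBKE, a kinase of innate immune signalling, chr26:2474878-2474980 had 23.1%, 27.3%, 27.1% and 29.4% in F0EHC and 27.3%, 6.64%, 14.5%, 15.2% and 7.63% in F0C. F0C replicate 1 alone reached the F0EHC level. A single bird decided the level at the promoter of GPM6B, a membrane protein of neurons, where chr1:122903165-122903427 had 2.13%, 3.32%, 4.99% and 38.3% in F0EHC and 4.43%, 1.85%, 2.84%, 8.08% and 3.23% in F0C. A pair of adjoining FSD1 regions was high in F0EHC replicate 1 and F0C replicates 1, 3 and 4, the second, chr28:1391470-1391669, with 27.5%, 7.49%, 5.57% and 5.43% in F0EHC and 26.2%, 4.58%, 53.6%, 32.9% and 6.10% in F0C.

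The 120 regions that held a listed single cytosine had a median difference of 8.76 points in size, against 4.11 points in the others, with 65 higher and 55 lower in F0EHC. The listed cytosines had been chosen on the same reads for their difference, so this gap is a description of that choice.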

How the data were processed

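Sperm DNA of each bird was made into a Zymo-Seq RRBS library and sequenced as paired ends. Per the labels and the study's methods, the authors trimmed reads with Trim Galore, mapped them to galGal5 with Bismark 0.22.3 (Bowtie) and called regions with metilene 0.2-8. The deposited region table gives the mean methylated percent of each region per library, without depth, and 31 control values that were spreadsheet errors were treated as missing. The deposited site table gives raw counts of methylated and unmethylated reads at cytosines that the authors called with edgeR (at least 8 reads in every library, FDR 0.05). It was used here for depth, for the check of region starts and to find regions that held a listed cytosine. Some symbols and features were also taken from its sites. Its columns of the authors' own test statistics were not used.

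Groups came from sample titles and columns were joined by bird number. Region starts were found to count from 0, since 30 listed cytosines lay 1 base after a deposited start and 5 on it, and were raised by 1. Gene symbols and features come from the study's annotation. Of 86 symbols that could be placed, 81 lay on the same chromosome in RefSeq GRCg7b. Percentages were fitted with limma 3.58.1 (R 4.3.3, trend over the mean, two-sided) over all 6428 regions, and the fit was tested on simulated data. Single regions were also compared by exact permutation. With separate birds, p-values measure the spread between these 9 birds.

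The regions, lists and rules were chosen with earlier results of these data known. Regions named by rule were the 6 widest differences per direction without overlap, the highest few-bird regions (4 with F0EHC birds only, 4 with F0C birds only, 2 with both), the 3 most even, the 2 nearest to each side of each bound, and the 3 gene IDs and 3 stretches with most regions. Alternatives were each library left out, other bounds, scales, thresholds and joining distances, and the replicate number as a block; the comparison of neighbours with all listed regions and after subtraction of group means, and libraries left out at every few-bird region, were added after seeing the data.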

Additional observations from a re-analysis of the deposited data

Results flagged for a closer look

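In the 116 groups of birds checked over 58 named regions, 1 bird stood far from the others of its group in 19, by Dixon's criterion at 95%. Chance marks about 1 in 20 groups, and many of these regions had been named because few birds were high, so the number is a description.

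F0EHC birds far above their group were replicate 3 at chr2:54388909-54388966 (46.1%), replicate 1 at chr27:494214-494262 (40.04%) and at chr28:3341357-3341431 (34.9%), and replicate 2 at chrZ:15838-15895 (32.4%) and at chr4_NT_459801v1_random:54537-54808 (19.8%). F0EHC replicate 4 was far above at chrUn_NT_464186v1:10226-10384 (30.4%), at chrUn_NT_464186v1:10402-10475 (33.4%) and at chrUn_NT_471827v1:105-284 (32.1%). F0EHC birds far below their group were replicate 3 at chr19:8864229-8864728 (21.0%) and replicate 4 at chr4_NT_459802v1_random:104630-104930 (1.68%) and at chr6:1030391-1030481 (0.690%). At the chromosome 6 region the other F0EHC birds had 1.64% to 1.80%, so that bird was far off only relative to a very narrow range.

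F0C birds stood far above their group as replicate 1 at chr15:2206029-2206105 (33.9%) and at chr27:494214-494262 (29.4%), and as replicate 3 at chr33:328384-328422 (32.9%) and at chrUn_NT_471827v1:105-284 (25.1%). F0C replicate 4 did so at chr1:112385950-112386000 (20.2%), and at chr9:23477907-23478111 (35.7%), chr9:23478130-23478226 (25.7%) and chr9:23478615-23478722 (52.3%), which lie close together.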

How the results depend on the processing

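With each library left out, 46.6% to 49.2% of the low methylation regions were higher and 50.8% to 53.4% lower in F0EHC. Regions without overlap then numbered 52 to 81 higher and 56 to 81 lower, as fewer birds overlap less. Unadjusted limma calls ran from 79 to 125 higher and from 45 to 92 lower, with the 45 reached without F0EHC replicate 1, and few-bird regions from 20 to 28. In both directions together the limma calls were 13.9% to 16.3% of the low methylation regions, beside 15.6% to 19.5% of all listed regions. For the counts without overlap and of few-bird regions that share was not counted, so nothing is read from them. Adjusted calls ran from 0 to 3 over all listed regions and from 0 to 1 among low methylation regions, namely chr8:28376484-28376869 without F0EHC replicate 2 (20.6 points, adjusted p = 0.0316) and chr23:5056159-5056282 without F0EHC replicate 4 (23.7 points, adjusted p = 0.0214). In both cases the bird left out was the lowest of F0EHC, so the difference could only widen, and neither region passed with all birds. Few-bird regions were chosen for a few high birds, so leaving such a bird out must change the difference strongly. Without a high bird the difference changed sign at 6 of the 21 few-bird regions, from which nothing is read. At chr3:3813593-3813636, in a check of all 21 added after seeing the data, it was -0.853 points without F0EHC replicate 2, against 6.45 with all birds. The other 5 ranged from -5.08 to 9.92 points at chr27:494214-494262, from -0.272 to 14.8 at chr2:54388909-54388966, from -7.29 to 0.494 at chr33:328384-328422, from -4.92 to 7.13 at chrUn_NT_471827v1:105-284 and from -0.112 to 10.3 at chrZ:15838-15895.

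Differences of at least 5 points were found in 20.02% higher and 18.6% lower, and a gap of at least 1 point left 16 higher and 18 lower without overlap. Few-bird regions were 7 with 30% as the upper threshold and 75 with 10% as the lower one. The shares over all listed regions were not counted at these settings, so nothing is read from these numbers. Stretches of 3 or more were 25 joined within 2000 bp and 80 within 50000 bp. The replicate numbers name separate birds, and same-numbered birds deviated with r of -0.003 to 0.105. With the replicate number as a block, 0 regions passed the adjusted threshold in limma (smallest adjusted p 0.342 among low methylation regions). The unadjusted one was passed by 167 (14.9%, background 11.1%). F0C replicate 5 has no F0EHC bird of its number, so the block takes it out of the difference. At chr10:9033117-9033190, for example, the difference was -14.9 points both under the block and without that bird. As the numbers pair no birds, nothing is read from these shares. Over all listed regions the smallest adjusted p under the block was 0.0757. Depth of the regions is unknown, so the counting error of single birds' values cannot be given here.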
